A study of Arabidopsis thaliana with 3 samples.

Results

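The 5 genes described here belong to the Kunitz-type inhibitor family of Arabidopsis thaliana: ATDR4 (AT1G73330), AT1G73325, KTI1 (AT1G73260), AT1G17860 and WSCP (AT1G72290). They were found by locus identifier or symbol among the 33446 genes of a table of root RNA levels. The family was chosen on the RPKM of ATDR4, which ranked 3 in that table, so the level of ATDR4 is given as a description, and the other members were taken by family. The RNA came from roots of 14-day-old Columbia (col-0) seedlings grown on vertical agar plates under long days. All plants carried the INTACT transgene, a nuclear envelope domain joined to GFP and a biotin tag under the constitutive 35S promoter, which is used to purify nuclei. There was a single group, roots, with 3 libraries, and no roots without the transgene were analysed here. The 3 libraries are given as a single column of RPKM (reads scaled by gene length and library size), so no value carries a replicate SD and no p-value was computed.

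Kunitz-type inhibitors are small secreted or vacuolar proteins that block proteases, classically trypsin and other serine proteases, by inserting an exposed loop into the active site. In plants they are known as defences against feeding insects and mites and as brakes on the proteases that act in programmed cell death. Some members have drifted from this role, and WSCP was first described as a protein that binds chlorophyll in water. In Arabidopsis it has also been found in a complex with the papain-like protease RD21. ATDR4 takes its name, drought-repressed, from a root transcript that declines when soil dries.

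A short coding segment is held by all 5 members. Its pattern was set so that each of the 5 has it, so its presence is a description and not a test of family relation. Each line gives the coding strand of the TAIR10.1 reference (RefSeq), and capitals mark the codons whose translation is the same in all 5 genes: a tyrosine, a proline and a run of 3 glycines.
ATDR4: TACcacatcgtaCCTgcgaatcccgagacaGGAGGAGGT
AT1G73325: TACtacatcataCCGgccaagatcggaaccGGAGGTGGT
KTI1: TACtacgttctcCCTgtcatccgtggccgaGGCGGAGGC
AT1G17860: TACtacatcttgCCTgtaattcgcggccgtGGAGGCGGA
WSCP: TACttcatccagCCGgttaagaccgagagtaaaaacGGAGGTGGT
The ATDR4 segment lies at chr1:27569490-27569528 on the minus strand, that of AT1G73325 at chr1:27568013-27568051 and that of KTI1 at chr1:27547893-27547931, both also on the minus strand. The segments of AT1G17860 (chr1:6149469-6149507) and WSCP (chr1:27215972-27216016) lie on the plus strand. The WSCP segment has 15 codons, and each of the others has 13.

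The members were spread over almost the whole range of root RNA levels. ATDR4 was listed at 3540 RPKM, which placed it 3 of 33446. It was followed by AT1G17860 at 360 RPKM (rank 217) and KTI1 at 141 RPKM (rank 813). AT1G73325 was listed at 0.630 RPKM (rank 19573), and WSCP was listed at 0. The RNA of ATDR4 made up 87.6% of the summed RPKM of the 5 genes.

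RPKM above 1, the threshold the study used for an expressed gene, was reached by 3 of the 5 members. Over all listed genes the share was 56.0%, and over protein-coding genes 68.4%, so the count for the members was close to that of genes in general. The same 3 members were above 100 RPKM, a level that 3.54% of all listed genes passed, and ATDR4 had been chosen for being high. As the RNA was taken from whole roots, a level can reflect many cells with little RNA of a gene or few cells with much of it, and these cannot be told apart.

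**Figure D1:**
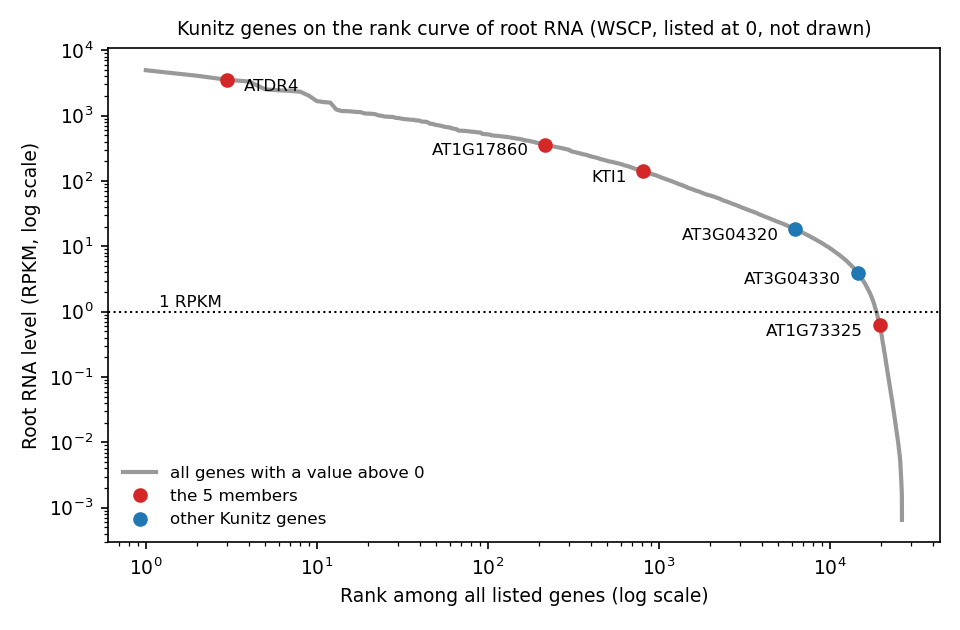
Root RNA level (RPKM, log scale) against rank among all listed genes (log scale), with the 5 members in red and the other Kunitz genes in blue on the curve of all genes with a value above 0. ATDR4 sits at rank 3, AT1G17860 and KTI1 lie above 100 RPKM, and AT1G73325 falls below the dotted line at 1 RPKM.

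The depth behind these levels was read from the low values of the table. Of the low values multiplied by annotated exon length, 64.3% fell near steps, and the step corresponded to about 118600000 counted reads. This may be the sum of the 3 libraries or the size of 1 library. Not every value followed the step. CRA1, a seed marker listed at 0.00166 RPKM, came to less than 1 read at this depth. Whole reads on the gene lengths used here would not give such a value. At this depth ATDR4 held an estimated 465550 reads, AT1G17860 held 31500, KTI1 held 19819 and AT1G73325 held 64. The counting error was 0.147% for ATDR4, 0.563% for AT1G17860, 0.710% for KTI1 and 12.5% for AT1G73325. For WSCP, listed at 0, a fixed floor of 3 reads corresponds to 0.0236 RPKM. This floor was set in advance and is not an exact Poisson limit. These errors and limits cover counting only, not the variation between plants or libraries, which is unknown here. The read numbers, errors and counting intervals would not hold as stated if the column is a mean of values per library, which is not known.

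ATDR4 is a gene without introns of 1110 bp on the minus strand of chromosome 1 (chr1:27568714-27569823 in TAIR10.1). Its 3540 RPKM had a 95% exact Poisson interval of 3530 to 3551 RPKM and was 1601 times the median of all listed genes, 2.21 RPKM. By the summed RPKM of the table it held 0.582% of the total. The genes next to it in rank were BGLU23 at 4958 RPKM, a beta-glucosidase of root ER bodies, and RSH at 4078 RPKM, a wall extensin needed for embryo cell division, above it. AT2G43150, a proline-rich extensin-like gene at 3333 RPKM, and MLP328, a major latex-like gene at 2529 RPKM, came after it. RSH was 1.15 times and AT2G43150 0.941 times the ATDR4 level. Both differences exceeded the counting error, but without replicate values the order of these genes could not be set against biological spread.

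AT1G17860, of the Kunitz trypsin inhibitor type, was second among the members at 360 RPKM (interval 356 to 364 RPKM). ATDR4 was 9.82-fold higher, a log2 ratio of 3.30 with a counting interval of 3.28 to 3.31. The gene lies elsewhere on chromosome 1 (plus strand, transcript chr1:6149301-6150038). Its value is less certain than its depth implies. A long noncoding RNA gene on the opposite strand, AT1G05347, covers 734 bp of it, and AT1G17870 (1.65 RPKM), also on the opposite strand, covers 100 bp. Whether strand was used in counting is not given in the sources used here, so reads from both strands may have been merged or set aside. In rank it stood between VDAC1, a mitochondrial porin, at 361 RPKM and AT5G14330 at 359.9 RPKM.

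KTI1, which is known to restrain cell death triggered by pathogens, was listed at 141 RPKM (interval 139 to 143 RPKM) under its synonym ATKTI1. This was 25.1-fold below ATDR4, a log2 ratio of 4.65 with a counting interval of 4.63 to 4.67. KTI1 and AT1G17860 have both been linked to resistance against spider mites. Their levels differed by a log2 ratio of -1.35, with KTI1 lower, and the counting interval ran from -1.38 to -1.33. The genes directly around KTI1 in rank included AT1G07920, a translation elongation factor gene, at 141.2 RPKM and AT5G57290, an acidic ribosomal protein gene, at 141.1 RPKM.

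AT1G73325 was listed at 0.630 RPKM, with an interval of 0.482 to 0.800 RPKM that stayed below 1. ATDR4 was 5616-fold higher per unit of length, a log2 ratio of 12.46 with a counting interval of 12.10 to 12.81. Of the listed genes, 58.5% were at or above AT1G73325. WSCP, at 0, shared its value with 21.0% of all listed genes. It is therefore given no fold against the other members.

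Transcripts of the members could be told from each other by sequence. No window of 61 bases, the read length, in any of the 5 annotated transcripts occurred at a second place in the TAIR10.1 genome (0 of 1050 windows for ATDR4, 803 for AT1G73325, 1125 for KTI1, 678 for AT1G17860 and 1011 for WSCP). Only exact matches were searched. The value of 0 for WSCP was thus not accompanied by repeated sequence in its transcript. Each member has a single exon in its annotated transcript.

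The encoded proteins were distant relatives. From translated RefSeq coding sequences the members encode proteins of 196 (AT1G17860) to 222 residues (AT1G73325), with 3 cysteines in WSCP, 4 in ATDR4, 5 in AT1G73325 and KTI1 and 6 in AT1G17860. Pairwise protein identity among the 5 ran from 30.8% (KTI1 with WSCP) to 42.0% (KTI1 with AT1G17860). The closest relative of ATDR4 among the 5 was AT1G73325, at 41.0% of 205 aligned residues, the neighbour at 0.630 RPKM. WSCP, listed at 0, shared 36.4% with ATDR4. Identity of the coding bases of ATDR4 and AT1G73325 was 64.7%.

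**Figure D2:**
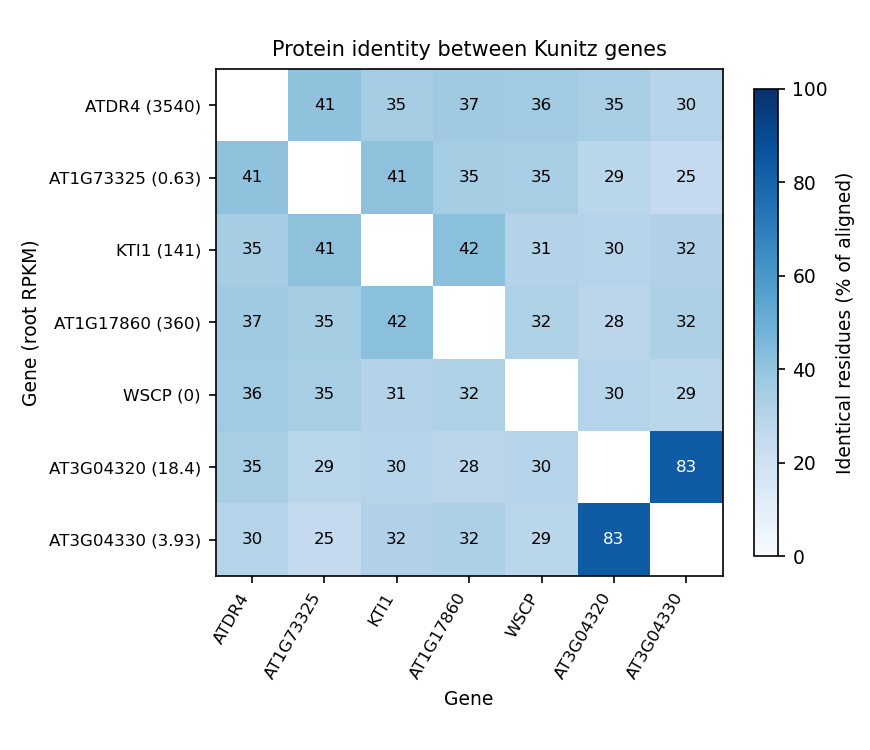
Protein identity (percent of aligned residues) between the 5 members and the other Kunitz genes, with the root RPKM of each gene in brackets. Identities among the members lie between 30.8% and 42.0%, and the darkest cells are the pair AT3G04320 and AT3G04330 at 83.0%.

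The rest of the family stood between the members. With ATDR4, whose annotated product does not name Kunitz, the TAIR10.1 annotation held 7 such genes, and those outside the rule, AT3G04320 and AT3G04330, lie 1050 bp apart on chromosome 3. They were listed at 18.4 and 3.93 RPKM, a log2 ratio of 2.23 with a counting interval of 2.07 to 2.38. Their proteins were 83.0% identical, against at most 42.0% within the 5 members. Neither held the segment shown above, whose pattern was set on the 5 members, so it does not mark the whole family. No window of 61 bases was shared between AT3G04320 and AT3G04330. In the whole family 5 of 7 genes were above 1 RPKM, again close to the 68.4% of protein-coding genes.

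ATDR4, AT1G73325 and KTI1 lie within 22726 bp of chromosome 1, and this stretch holds 9 genes, all on the minus strand. The highest and the lowest level in it belonged to the neighbours ATDR4 and AT1G73325. That ATDR4 was the highest follows from its choice by rank. AT1G73325 starts 432 bp beyond the end of ATDR4, on its downstream side. Between KTI1 and AT1G73325 lie genes of serine carboxypeptidase-like proteins, enzymes of the peptidase fold that include acyltransferases, and a methyltransferase-type gene. All 6 of these other genes were above 1 RPKM, as were 68.4% of protein-coding genes, and the highest was scpl3 at 16.5 RPKM. The lowest was scpl2 at 1.33 RPKM, which overlaps scpl4 (9.69 RPKM) on the same strand, so these 2 values are uncertain.

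**Figure D3:**
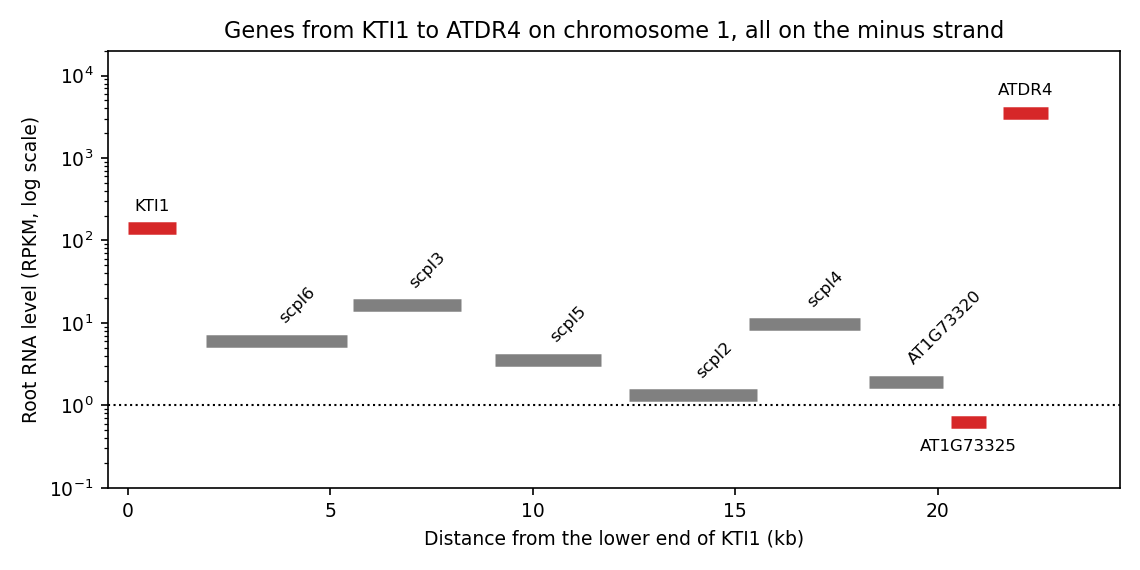
Root RNA level (RPKM, log scale) of the 9 genes from KTI1 to ATDR4, drawn as horizontal lines at the height of their level over their extent in kb from the lower end of KTI1, with Kunitz genes in red and others in grey. KTI1 at 141 RPKM and ATDR4 at 3540 RPKM stand at the ends, while AT1G73325, next to ATDR4, lies below the dotted line at 1 RPKM.

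High levels of the members were not shared by the genes beside them in every case. Of the 10 annotated genes nearest to ATDR4, 5 on each side, 9 had a value, and they ran from 0.630 to 9.69 RPKM. The first gene upstream, AT1G73340, a cytochrome P450 gene, was 3290 bp away and listed at 9.06 RPKM. KTI1 had high neighbours on its other side: AtOCT1, a carnitine transporter gene, at 413 RPKM and AT1G73230, a gene of the nascent polypeptide-associated complex, at 280 RPKM. ATFX, the gene next to KTI1 at 618 bp, was listed at 29.2 RPKM. Near AT1G17860, BTF3, another gene of the nascent chain complex, was listed at 311 RPKM at a distance of 2345 bp, whereas AT1G17850, 237 bp from the gene record, was listed at 1.40 RPKM. The genes on either side of WSCP were not at 0: AERO1, an oxidoreductin gene of the endoplasmic reticulum, was listed at 9.75 RPKM and AT1G72300, a receptor kinase gene, at 11.0 RPKM.

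Sequence before the transcript starts differed between the members. Windows of 300 bases upstream of the annotated transcript start were searched on both strands for 4 motifs. The G-box, bound by bZIP and bHLH factors, was searched as CACGTG. The core of the drought response element was searched as CCGAC. The core of the W-box, bound by WRKY factors, was searched as TTGAC. The TATA box was searched as TATAAA. No matches of different motifs overlapped in the members. Among 27443 promoters of protein-coding genes the shares with at least 1 match were 7.09%, 13.9%, 50.4% and 52.9%, in this order. The windows of ATDR4, of its neighbour AT1G73325 and of AT1G17860 are shown, since these are the highest member, the low gene beside it and the second highest member. Capitals mark the matches, and the last base is the one before the transcript start.
ATDR4: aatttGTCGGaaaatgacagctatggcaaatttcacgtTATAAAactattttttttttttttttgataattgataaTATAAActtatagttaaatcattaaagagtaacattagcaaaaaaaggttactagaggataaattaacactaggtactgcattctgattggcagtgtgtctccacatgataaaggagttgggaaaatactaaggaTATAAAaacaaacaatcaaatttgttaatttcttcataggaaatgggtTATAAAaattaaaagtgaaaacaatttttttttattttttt
AT1G73325: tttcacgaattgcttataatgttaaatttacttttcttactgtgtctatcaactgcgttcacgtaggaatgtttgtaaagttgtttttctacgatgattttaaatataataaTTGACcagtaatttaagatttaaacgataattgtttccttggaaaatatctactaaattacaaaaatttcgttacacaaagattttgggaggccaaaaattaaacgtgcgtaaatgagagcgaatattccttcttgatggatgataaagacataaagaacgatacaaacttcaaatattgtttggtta
AT1G17860: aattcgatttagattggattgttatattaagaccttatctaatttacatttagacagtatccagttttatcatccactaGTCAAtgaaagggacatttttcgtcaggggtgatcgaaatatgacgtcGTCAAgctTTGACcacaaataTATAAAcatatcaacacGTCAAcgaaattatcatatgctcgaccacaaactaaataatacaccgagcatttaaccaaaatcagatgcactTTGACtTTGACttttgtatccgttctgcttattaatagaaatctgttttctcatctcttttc
The windows are chr1:27569824-27570123 and chr1:27568282-27568581, both on the minus strand, and chr1:6149001-6149300 on the plus strand of TAIR10.1. The ATDR4 window held 4 matches of TATAAA, which 2.69% of all promoters equalled or passed, and the match nearest to the start began 41 bases before it. This window was 24.7% G and C, against 28.3% to 37.3% in the other members. The share over all promoters was not adjusted for base composition. The ATDR4 window also held 1 match of CCGAC, at its far end. The AT1G73325 window held no TATAAA and 1 TTGAC. The AT1G17860 window held 6 matches of TTGAC, a number that 0.0510% of all promoters equalled or passed. The annotated gene starts before its transcript there, so the last 123 bases of this window lie inside the gene record, and they hold 2 of the 6 matches. KTI1 had 1 TTGAC and 1 TATAAA. WSCP had 1 CACGTG and 2 TATAAA, the nearer beginning 31 bases before the start, although the gene was listed at 0. The shares were taken at 4 TATAAA and 6 TTGAC, the highest counts seen among the members, so they describe these windows and test nothing. A match is a description of letters, and no binding was measured.

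Other protease inhibitor families were also looked up. That all their genes lay below ATDR4 follows from its choice for rank 3 and is not a result about families. Of 24 genes of 4 other families, 17 were above 1 RPKM, a share close to the 68.4% of protein-coding genes, with a median of 10.9 RPKM, against 2.21 RPKM over all listed genes and 4.86 RPKM over protein-coding genes. All 7 cystatins, inhibitors of papain-like cysteine proteases, were above 1 RPKM, led by CYS1 at 325 RPKM. Of the serpins, which trap proteases by a change of fold, 3 of 6 were above 1 RPKM, and SERPIN1, known to inhibit RD21, was listed at 42.5 RPKM. Among the potato inhibitor I genes 3 of 6 were above 1 RPKM, with UPI at 105 RPKM and AT2G38870 at 89.9 RPKM. The group of mustard trypsin inhibitor type came closest to the Kunitz pattern. It held AT2G43535 at 2395 RPKM (rank 7) and TI1 at 209 RPKM, but TI2 at 0.559 RPKM.

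Plant inhibitors act on some papain-like proteases. Of a fixed list of 18 such genes, 17 were above 1 RPKM, against 68.4% of protein-coding genes, with a median of 91.3 RPKM. The list is not the whole family and was chosen with earlier results of these data known, so these values do not describe the family. RD21A, the partner described for WSCP, was listed at 567 RPKM while WSCP was listed at 0. RD19A was the highest of the list at 811 RPKM. XCP1 and XCP2, which act in the dying cells of the xylem, were listed at 34.3 and 71.0 RPKM. CEP2, of the endopeptidases with an ER retention signal, was listed at 441 RPKM, and SAG12, a marker of leaf senescence, at 0. AT4G11320, a papain-type gene outside the list that was named after its value was seen, ranked 6 at 2441 RPKM. ATDR4, AT4G11320 and AT2G43535 were among the 7 highest genes. ATDR4 was chosen for its rank, AT4G11320 was named for its value, and the list with AT2G43535 was chosen with earlier results known. Their place is therefore a description and not a result about inhibitors or proteases.

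**Figure D4:**
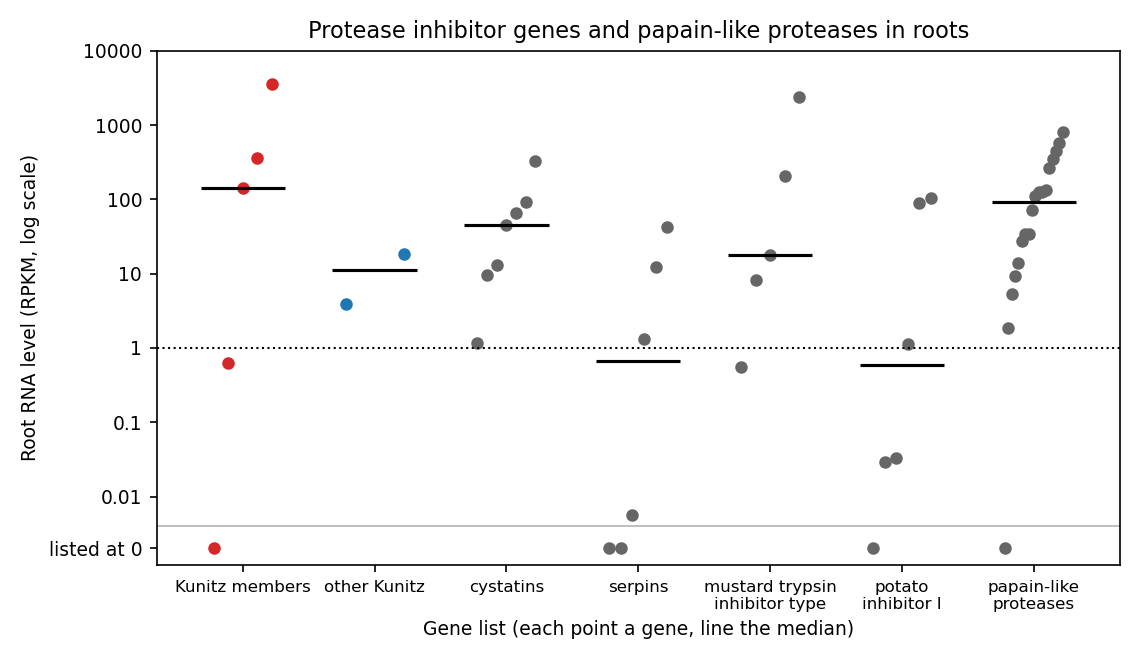
Root RNA level (RPKM, log scale) of each gene in the Kunitz members, the other Kunitz genes, 4 further inhibitor families and the papain-like proteases, with genes listed at 0 below the grey line, the median of each list as a black bar and 1 RPKM dotted. The Kunitz members span from 0 to 3540 RPKM, and the mustard trypsin inhibitor type shows the next highest single inhibitor gene, at 2395 RPKM.

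The label of the tissue was checked against marker genes. All 6 root markers matched (SCR, SHR, PIN2, COBL9, EXPA7 and CASP1) were between 11.4 and 203 RPKM, and SMB was not analysed here. The 4 leaf markers (RBCS1A, RCA, LHCB1.3 and LHCB2.1) lay between 2.12 and 17.3 RPKM, below 4 of the 6 root markers. All 4 leaf markers were thus above 1 RPKM. Of the 4 flower and seed markers, 0 were above 1 RPKM, and the highest was AP3 at 0.352 RPKM. Of protein-coding genes, 68.4% were above 1 RPKM.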

How the data were processed

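RNA-seq of roots was analysed from the deposited table of RPKM values, which the authors computed with edgeR from reads counted per gene with HTSeq. The submitters' processing notes name STAR as the aligner and TAIR10 as the build. The paper's methods name TopHat2, directly after the leaf data, and do not say whether it was used for roots. The deposited table holds a single RPKM column for the 3 libraries, and how they were combined, the annotation release and the use of strand are not given in the sources used here. Versions of these tools are likewise not given.

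Names were matched to the TAIR10.1 RefSeq annotation by locus, symbol or synonym (32535 of 33446, 97.3%). Lengths, positions and sequences are those of TAIR10.1, and the authors may have counted on other gene models. Depth was estimated from low values multiplied by exon length minus 1 bp. Of 4305 values under 12 reads, 64.3% lay within 0.05 of a whole number (10% by chance). With no replicate values, no test was run. Intervals are 95% exact Poisson for levels, and ratios use a normal interval on the log2 scale. Proteins and coding sequences were aligned end to end with free end gaps.

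The members and lists were chosen with earlier results of these data known. Genes named are the 5 members, the 2 genes ranked above and below each, 5 annotated neighbours on each side, and fixed lists of inhibitors, proteases and markers. AT1G05347 and AT1G17870, which overlap a member, and AT4G11320 were named outside these sets, after their positions or values were seen. Alternatives were thresholds of 0.5 and 2 RPKM, other gene sets, TPM, pseudocounts of 1 and 0.1 RPKM, reads without length scaling and coding length. Python 3.11.15, numpy 2.4.6, scipy 1.17.1, pandas 2.3.3, Biopython 1.88 and matplotlib 3.10.9 were used.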

Additional observations from a re-analysis of the deposited data

How the results depend on the processing

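No paired analysis was possible because the table holds a single column for a single group, and for the same reason no library could be left out in turn. Levels, shares and ratios were held to their counting interval, and ranks, counts and medians to 1.5 times the value given. Of 42 recomputed values, 23 stayed within these limits and 19 moved. No ratio changed sign. Rescaling to the fixed sum of TPM gave 5816 for ATDR4, 592 for AT1G17860, 232 for KTI1 and 1.04 for AT1G73325. Every gene was multiplied by the same 1.64, so no rank changed, and the threshold of 1 RPKM does not carry over to TPM. At RPKM above 0.5 the expressed members were 4, the added gene being AT1G73325 at 0.630 RPKM. Of all listed genes, 58.5% were at or above that level, and the share above 0.5 RPKM was not computed. Ranked by reads without length scaling, ATDR4 was 5 and AT1G17860 was 540. The share of the 5 members, 0.664% of the summed RPKM, was 0.684% over protein-coding genes, 0.681% over nuclear genes and 0.468% of estimated reads. The log2 ratio of ATDR4 to AT1G73325 was 11.08 with 1 RPKM added, 12.82 from reads and 12.91 per coding length. The last 2 settings gave 4.55 and 4.59 for KTI1 and 3.89 and 3.79 for AT1G17860. Medians over genes above 1 RPKM were 12.3 for serpins, 113 for the mustard trypsin inhibitor type and 89.9 for potato inhibitor I, against 0.663, 17.6 and 0.590 RPKM over whole lists, since genes at or near 0 were left out. Depth limited WSCP and AT1G73325 most, and the spread between libraries limits every value and could not be measured.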
